A study of Mus musculus with 12 samples.

Results

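Cxcl9, Cxcl10 and Cxcl11 encode the interferon-inducible ligands of the chemokine receptor CXCR3. The members were taken by gene name from a table of 29428 genes, each name matched a single row, and all 3 were among the 16127 genes tested. RNA-seq was performed on 12 libraries of 2 immortalized mouse striatal cell lines. STHdhQ7/Q7 cells (Q7), labelled normal in genotype, carry 7 glutamine repeats in huntingtin, and STHdhQ111/Q111 cells (Q111) carry 111. Each line was either left nontreated (Q7-C and Q111-C) or incubated for 24 h with 100 ng/mL murine IFNγ together with 5 μg/mL LPS (Q7-T and Q111-T), with 3 libraries per group. IFNγ is a cytokine made mainly by T and NK cells, and LPS is a component of the outer membrane of Gram-negative bacteria. All cells were grown in 10% FBS at 33 °C and were used within 20 passages. Each genotype is represented by a single cell line, so an effect of the repeat length cannot be told apart from other differences between the lines, and IFNγ was never given without LPS.

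CXCL9, CXCL10 and CXCL11 attract activated T cells and NK cells, which carry CXCR3. Their genes are classical targets of interferon. IFNγ acts through the kinases JAK1 and JAK2, and the signal induces further transcription factors such as IRF1, while LPS acts through TLR4 on NF-κB and, by way of IRF3 and interferon β, on the same interferon-response genes. In brain, glial cells and neurons have been described as sources of CXCL10 under inflammation, and T cells are the usual cells that respond.

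The 3 genes are neighbours on the minus strand of chromosome 5 in GRCm38. In the deposited table, Cxcl9 (ENSMUSG00000029417) spans chr5:92321347-92328079, Cxcl10 (ENSMUSG00000034855) spans chr5:92346638-92348882 and Cxcl11 (ENSMUSG00000060183) spans chr5:92359544-92365485. In the GENCODE annotation the protein-coding transcript of Cxcl9 has 4 exons and a spliced length of 2889 bases, and the main transcript of Cxcl10 has 4 exons and 1094 bases. Cxcl11 is annotated as a polymorphic pseudogene, which means that some mouse strains carry an intact reading frame and others a broken one. It has a protein-coding transcript of 5 exons and 1581 bases and a pseudogene transcript of 4 exons and 3794 bases. The Cxcl11 allele of these lines was not analysed here, so its values are RNA levels only.

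The 250 bases before the start of Cxcl9 and of Cxcl10 are shown because both genes are targets of the transcription factors that the treatment acts on. They are RefSeq sequences of GRCm38.p6 in the direction of the gene, from chr5:92328080-92328329 for Cxcl9 and chr5:92348890-92349139 for Cxcl10, both minus strand, and 2 of the 3 genes were matched in that table. Short motifs, written here as 5′ to 3′ letters with N for any base, were searched on both strands, and capitals mark the matches. They were the core of the interferon-stimulated response element (ISRE, GAAANNGAA), the gamma-activated site (GAS, TTCNNNGAA), the NF-κB consensus and the TATA box (TATAAA).
Cxcl9: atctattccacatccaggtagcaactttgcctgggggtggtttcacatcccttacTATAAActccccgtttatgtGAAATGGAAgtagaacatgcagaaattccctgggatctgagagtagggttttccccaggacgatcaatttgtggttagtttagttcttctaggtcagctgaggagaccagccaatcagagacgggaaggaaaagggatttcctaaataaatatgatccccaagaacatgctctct
Cxcl10: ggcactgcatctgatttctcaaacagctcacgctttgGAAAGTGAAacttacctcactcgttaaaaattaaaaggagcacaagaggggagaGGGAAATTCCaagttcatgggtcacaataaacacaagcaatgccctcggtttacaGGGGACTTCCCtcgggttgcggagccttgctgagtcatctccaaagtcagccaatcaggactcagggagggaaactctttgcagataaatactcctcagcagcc
The ISRE core was found once in each promoter, at bases 175 to 167 before the start of Cxcl9 and at bases 213 to 205 before the start of Cxcl10. The NF-κB consensus was found in Cxcl10 at bases 159 to 150, and again in overlapping matches on both strands within bases 104 to 94. The TATA box letters were found in Cxcl9 at bases 195 to 190, and no GAS letters were found in either window. Of 32851 promoter windows of this length, 7.13% held the ISRE core, 7.25% the NF-κB consensus, 7.02% the GAS letters and 12.4% the TATA box letters. These matches are descriptions of letters and were not tested as binding sites.

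The libraries held between 57505990 and 96417834 estimated counts. One library, Q7-T replicate 2, had its nearest library in another group (Q7-C replicate 1) by distance over all genes tested, so comparisons were also fitted without these 2 libraries. The label calls the cells striatal neuronal, and the markers only partly went with it. Of the neuronal markers measured, Tubb3 (2.56 to 83.6 TPM) and Map2 (0.604 to 10.6 TPM) were detected, whereas Snap25 and Syt1 did not exceed 0.0250 TPM in any library. Tubb3 was at 16.2 to 17.8 TPM in Q7-C and 2.56 to 4.88 TPM in Q111-C, against 57.9 to 83.6 TPM in Q7-T and 23.1 to 26.6 TPM in Q111-T. Map2 went the other way in Q7 cells, from 4.41 to 10.6 TPM in Q7-C to 0.604 to 3.11 TPM in Q7-T, and its ranges overlapped in Q111 cells (5.49 to 6.12 and 4.44 to 6.56 TPM). Of 7 markers of striatal medium spiny neurons 4 were measured, with a summed level of at most 0.815 TPM in Q7 cells, 5.07 to 6.68 TPM in Q111-C and 2.12 to 2.35 TPM in Q111-T, mostly from Penk. The summed level of 5 astrocyte markers was 1.04 to 1.93 TPM in Q7 cells, 8.97 to 11 TPM in Q111-C and 3.94 to 4.94 TPM in Q111-T, with Gfap and Aqp4 under 1 TPM throughout. Most of the sum in Q111-C was Slc1a3 (8.60 to 10.6 TPM, and 2.25 to 3.00 TPM in Q111-T), whereas Aldh1l1 was at most 0.115 TPM in Q111-C and 1.05 to 1.61 TPM in Q111-T. For endothelial cells, 5 markers were each under 1 TPM in every library. Their summed level was 0.224 to 0.361 TPM in Q7-C and 0.0686 to 0.479 TPM in Q111-C. It was higher without overlap in the treated groups, at 0.397 to 1.65 TPM in Q7-T and 0.882 to 1.65 TPM in Q111-T. The part of the endothelial markers in the results was not tested. Of 6 mesenchymal markers, 5 were at 1 TPM or more in every library (Vim 1147 to 2651 TPM, Col1a2 2.44 to 258 TPM), and Thy1 did not exceed 0.157 TPM. Their summed level moved with the groups, at 2639 to 3046 TPM in Q7-C and at 3646 to 3773 TPM in Q111-C, against 1794 to 2116 TPM in Q7-T and 1471 to 1588 TPM in Q111-T, and the part of these markers in the results was not tested. For macrophages or microglia, 5 of 8 listed markers were measured, all of them under 1 TPM in every library, and their summed level was 0.133 to 0.292 TPM in Q7-C and 0.208 to 0.354 TPM in Q111-C, against 0.122 to 0.156 TPM in Q7-T and 0.185 to 0.479 TPM in Q111-T. The markers fixed for T or NK cells were not analysed here. Since these are bulk samples, more cells that express a gene and more RNA per cell cannot be told apart.

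Cxcl10 was the most abundant of the 3 ligands in all 12 libraries, and it was already higher in Q111 than in Q7 cells before treatment. In TPM (a level scaled to the library and corrected for transcript length), Cxcl10 measured 3.28, 13.6 and 7.76 in replicates 1 to 3 of Q7-C and 77.4, 94.0 and 97.8 in Q111-C. After IFNγ/LPS it measured 623, 238 and 535 TPM in Q7-T and 3726, 4080 and 3524 TPM in Q111-T. No pair of groups overlapped, and the order of the levels was Q7-C, Q111-C, Q7-T and Q111-T. In the Q111-T libraries Cxcl10 ranked between 15 and 16 among all 29428 genes by TPM, and in Q7-T between 129 and 398.

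Cxcl9 was low in nontreated cells of both lines and rose with treatment. It measured 0.441, 1.95 and 1.25 TPM in Q7-C and 1.03, 1.08 and 1.58 TPM in Q111-C, so the nontreated groups overlapped. In treated cells it measured 118, 61 and 125 TPM in Q7-T and 508, 515 and 524 TPM in Q111-T. The treated groups overlapped neither with each other nor with the nontreated groups. The values rest on at least 52 estimated counts in every library.

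Cxcl11 followed the pattern of Cxcl9 at a lower level. It measured 0.172, 1.03 and 0.637 TPM in Q7-C and 0.514, 0.730 and 1.29 TPM in Q111-C, and these groups overlapped. After treatment it measured 38.5, 25.3 and 33.2 TPM in Q7-T and 219, 248 and 223 TPM in Q111-T, without overlap. Its lowest value rests on 26 estimated counts, in Q7-C replicate 1.

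**Figure D1:**
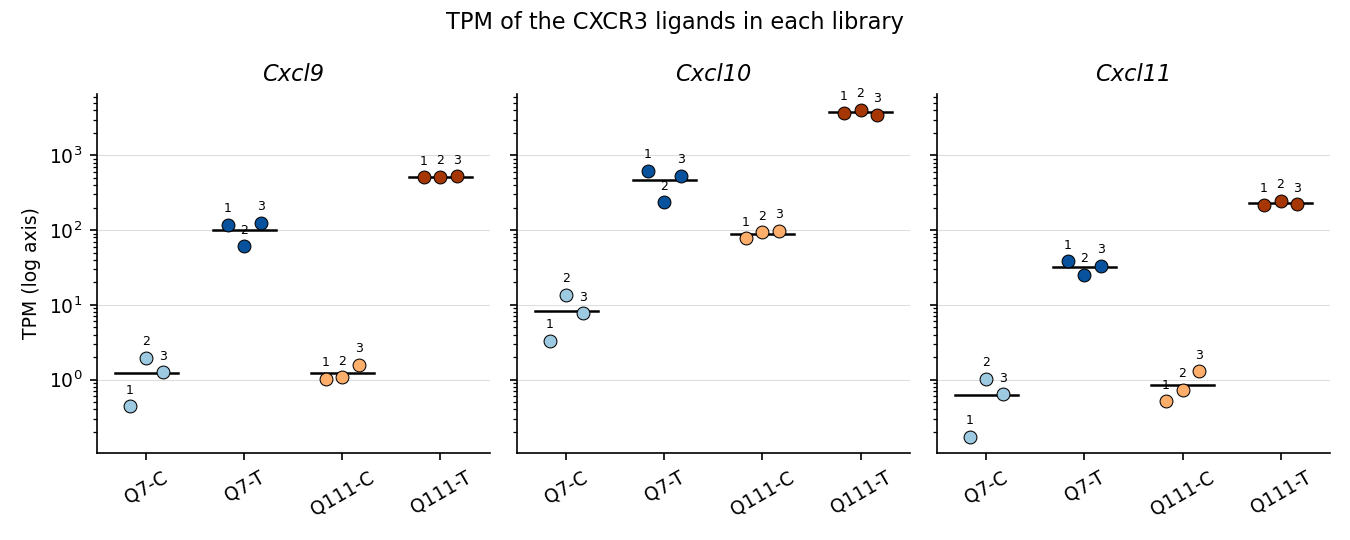
TPM of Cxcl9, Cxcl10 and Cxcl11 (log axis) in each of the 12 libraries by group, with each point labelled by its replicate number and a line at the group mean (n = 3). Only Cxcl10 separates the nontreated lines (3.28 to 13.6 TPM in Q7-C, 77.4 to 97.8 TPM in Q111-C), and all 3 genes separate the treated lines.

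To compare the treatment response, each line was first set against its own nontreated cells. In Q7 cells all 3 ligands rose. The log2 fold change in Q7-T vs. Q7-C was 6.58 ± 0.40 (SE) for Cxcl9 (edgeR adjusted p = 9.65e-07), 6.0 ± 0.41 for Cxcl10 (adjusted p = 2.26e-06) and 5.97 ± 0.49 for Cxcl11 (adjusted p = 1.21e-05). They amount to 95.8-fold, 63.9-fold and 62.8-fold. Among all genes tested in this comparison, 2.93% were called higher and 1.11% lower, where a call needs an adjusted p below 0.05 together with a 2-fold difference or more. By TPM, 5.55% of genes had all libraries of Q7-T above all of Q7-C.

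In Q111 cells the 3 ligands rose as well, and the sizes were more unequal. The log2 fold change in Q111-T vs. Q111-C was 8.80 ± 0.44 for Cxcl9 (edgeR adjusted p = 2.53e-07), 5.51 ± 0.40 for Cxcl10 (adjusted p = 2.53e-06) and 8.19 ± 0.54 for Cxcl11 (adjusted p = 1.29e-06), or 447-fold, 45.6-fold and 292-fold. Here 8.28% of all genes tested were called higher, 2.96% were called lower, and 19.8% had non-overlapping groups with Q111-T on top.

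Whether the lines differed before treatment was asked next, and among the ligands only Cxcl10 passed the test. It was 9.16-fold higher in Q111-C than Q7-C (log2 fold change 3.20 ± 0.36, edgeR adjusted p = 5.92e-05). For Cxcl9 the difference was -0.22 ± 0.33 (95% interval -0.95 to 0.50, edgeR adjusted p = 0.696) and for Cxcl11 it was 0.23 ± 0.42 (-0.70 to 1.16, adjusted p = 0.762), on the log2 scale. A difference of about 2-fold in Cxcl11 is therefore not excluded by its interval. The sign of both small differences turned under other settings, to 0.27 for Cxcl9 without Q7-C replicate 2 and to -0.17 for Cxcl11 without Q111-C replicate 3. In this comparison 7.62% of genes were called higher and 7.61% lower, and 38.8% had non-overlapping TPM with Q111-C on top. On the TPM scale the median gene was itself 0.274 higher in Q111-C than Q7-C and 0.341 higher in Q111-T than Q7-T (log2), against -0.020 and -0.029 in the edgeR fit.

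In treated cells all 3 ligands were higher in Q111 than in Q7 cells. The fold was 4.0 for Cxcl9 (log2 fold change 2.00 ± 0.32, edgeR adjusted p = 0.000611), 6.54 for Cxcl10 (2.71 ± 0.35, adjusted p = 0.000127) and 5.44 for Cxcl11 (2.44 ± 0.41, adjusted p = 0.000824). Called higher in Q111-T vs. Q7-T were 13.3% of all genes tested, called lower were 11.2%, and 33.9% had non-overlapping TPM with Q111-T on top. The exact permutation test of the TPM gave p = 0.10, the smallest value it can give for 3 against 3 libraries, for each ligand in these comparisons except for Cxcl9 (p = 0.900) and Cxcl11 (p = 0.50) in nontreated cells.

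The interaction of cell line and treatment compares the treatment effects of the lines directly. For Cxcl9 the log2 fold change on treatment was 2.22 ± 0.46 larger in Q111 than in Q7 cells (95% interval 1.22 to 3.23, edgeR adjusted p = 0.0151). For Cxcl11 it was 2.22 ± 0.58 larger (0.94 to 3.50, adjusted p = 0.0497), close to the threshold. For Cxcl10 the difference was -0.49 ± 0.47 (-1.51 to 0.53, adjusted p = 0.621). Thus the larger change in Q111 cells was called for Cxcl9 and Cxcl11, and the interval for Cxcl10 spans 0. Among all genes, 3.52% were called with a larger and 1.2% with a smaller log2 fold change in Q111 cells. The Cxcl9 call was lost without Q111-C replicate 1 (2.11, adjusted p = 0.0541) or without Q111-C replicate 2 (2.11, adjusted p = 0.0571), and the Cxcl11 call was lost in 9 of 12 fits that left out 1 library, with adjusted p up to 0.135. Without Q7-C replicate 1 and Q7-T replicate 2, a fit added after the data had been seen, the treatment effect in Q7 cells was 6.33 for Cxcl9, 5.83 for Cxcl10 and 5.51 for Cxcl11, and the interaction was 2.48 for Cxcl9 (adjusted p = 0.000721), 2.68 for Cxcl11 (adjusted p = 0.00309) and -0.31 for Cxcl10 (adjusted p = 0.565).

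**Figure D2:**
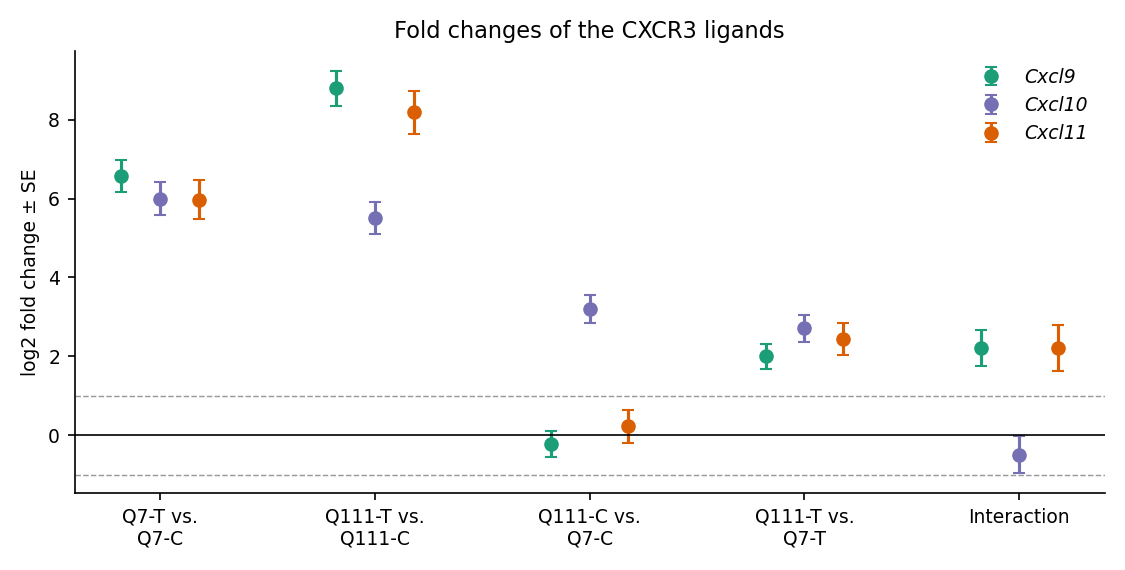
Log2 fold change ± SE from the edgeR fit (vertical axis) of the 3 ligands in 4 pairwise comparisons and in the interaction of cell line and treatment, with dashed lines at the 2-fold threshold. Cxcl10 stands at 3.20 in Q111-C vs. Q7-C while Cxcl9 and Cxcl11 lie near 0, and the interaction is 2.22 for Cxcl9 and Cxcl11 and -0.49 for Cxcl10.

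The balance of the ligands was measured as their ratio within a library, which does not depend on how a library is scaled. In nontreated cells Cxcl10 exceeded Cxcl9 by 7.44, 6.97 and 6.21 times in Q7-C and by 75, 87.3 and 62.0 times in Q111-C. In treated cells the excess was 5.27, 3.91 and 4.27 times in Q7-T and 7.33, 7.92 and 6.73 times in Q111-T. The ligands of Q111 cells were thus almost entirely Cxcl10 before treatment (97.8% ± 0.533 of their summed TPM, SD, n = 3), against 82.2% ± 1.91 in Q7-C, 76.8% ± 3.25 in Q7-T and 83.5% ± 0.889 in Q111-T.

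On the log2 scale the Cxcl9/Cxcl10 ratio rose with treatment by 0.62 ± 0.15 (SE) in Q7 cells and by 3.34 ± 0.16 in Q111 cells, and the Cxcl11/Cxcl10 ratio changed by 0.11 ± 0.32 and 2.79 ± 0.30. Among treated cells the Cxcl9/Cxcl10 ratio was 0.72 ± 0.15 lower in Q111 than in Q7 cells (-2.87 against -2.15) and the groups did not overlap. The Cxcl9/Cxcl11 ratio was 0.43 ± 0.19 lower (1.17 against 1.60), and the Cxcl11/Cxcl10 ratio differed by -0.28 ± 0.26 with overlapping groups. Their exact two-sided permutation p-values were 0.10, 0.10 and 0.40, and 0.15, 0.15 and 0.40 after adjustment over the 3 ratios, so with 3 libraries per group none could pass. Cxcl9 exceeded Cxcl11 in each of the 12 libraries, by 1.22 to 3.77 times.

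**Figure D3:**
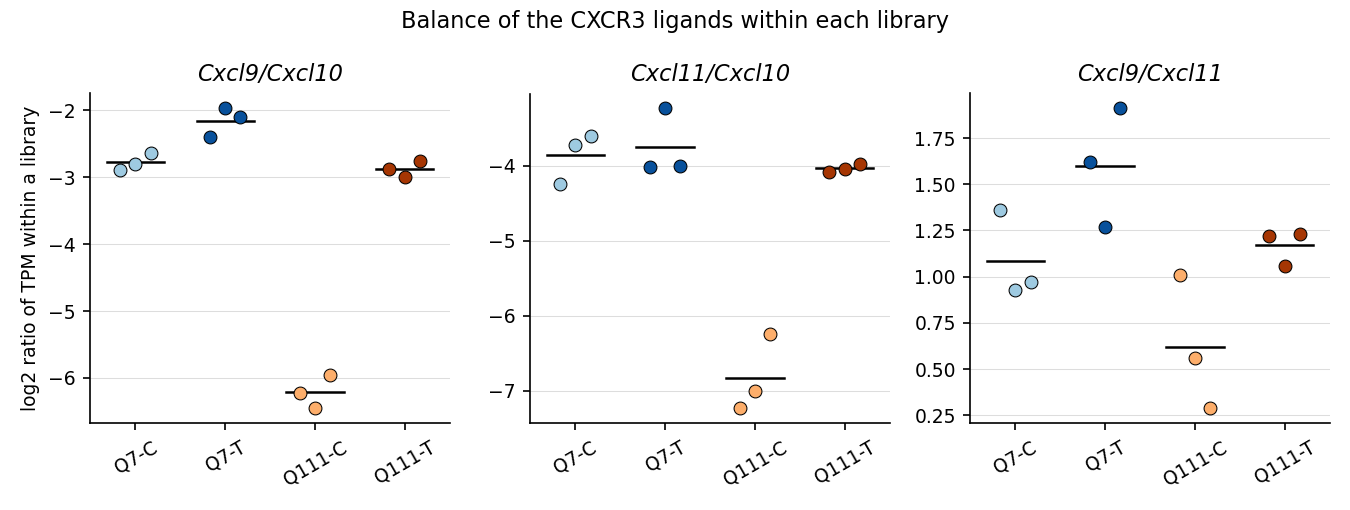
Log2 ratio of the TPM of 2 ligands within each library (vertical axes, a separate scale per panel) by group, with a line at the group mean (n = 3). The Q111-C libraries lie between -6.45 and -5.96 for Cxcl9/Cxcl10, below the other 9 libraries, which lie between -2.99 and -1.97.

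The spread between replicates depended on how the libraries were scaled. In Q7-C, replicate 1 was lowest and replicate 2 highest for each ligand under both TPM and CPM (estimated counts scaled to the library with TMM factors, the scaling behind the edgeR tests), and by TPM the highest library exceeded the lowest by 4.43 times for Cxcl9, 4.15 times for Cxcl10 and 5.95 times for Cxcl11. In Q7-T, replicate 2 was lowest for each ligand by TPM, whereas by CPM it was lowest for Cxcl9 and Cxcl10 and highest for Cxcl11 (84.3 against 76.3 and 69.4). In Q111-T the highest TPM fell in different libraries, and by CPM replicate 2 was highest for each ligand. The coefficient of variation by TPM was 1.54% for Cxcl9, 7.45% for Cxcl10 and 6.80% for Cxcl11 in Q111-T, against 34.7%, 43.3% and 20.6% in Q7-T. By CPM it was 11%, 18% and 18% in Q111-T and 12%, 22% and 9.7% in Q7-T. On that scale the spread in Q111-T was slightly smaller for Cxcl9 and Cxcl10 and larger for Cxcl11. The deviations from the group means over the 12 libraries, which share depth and scaling, correlated by TPM at r = 0.97 for Cxcl9 and Cxcl10, 0.91 for Cxcl9 and Cxcl11 and 0.89 for Cxcl10 and Cxcl11, and by CPM at 0.93, 0.88 and 0.78. The median gene deviated by -0.23 in Q7-C replicate 1 and by -0.37 in Q7-T replicate 2 on the log2 TPM scale, in the same direction as the ligands (-1.01 and -0.85 for Cxcl10). The part of the library in this was not tested.

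Of the 9 genes listed as receptors and modifiers of the ligands, 3 were tested, and the receptor Cxcr3 was not analysed here. Ackr3, an atypical receptor that binds and removes CXCL11 and CXCL12, was 10.2-fold higher in Q111-C than Q7-C (4.16 ± 1.19 TPM in Q7-C, 52.4 ± 4.15 TPM in Q111-C, edgeR adjusted p = 5.77e-05) and 8.75-fold higher in Q111-T than Q7-T (adjusted p = 6.84e-05). Its treatment effect did not pass in either line (log2 fold change 1.23 and 1.01, adjusted p = 0.0734 and 0.0660). The gelatinase Mmp9, which trims chemokines, stayed at or under 1.10 TPM, and Dpp4, a peptidase that inactivates CXCR3 ligands, stayed at or under 0.0537 TPM. The matrix proteoglycan Vcan rose in Q111 cells (log2 fold change 1.79 ± 0.39, adjusted p = 0.00675), a call that was lost with limma on log2(TPM), with adjusted p up to 0.0728.

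Among the 10 genes of the IFNγ receptor, JAK-STAT and IRF list, 5 were called higher on treatment in Q7 cells and 6 in Q111 cells, beside 2.93% and 8.28% of all genes tested. In either line 0 were called lower by edgeR, DESeq2 or limma, and 0 were lower at an unadjusted p under 0.05. The Stat3 call in Q7 cells was lost in 10 of 24 other fits and the Jak2 call in Q111 cells in 9. The median log2 fold change of the list was 0.94 and 1.44, beside 0.00 over all genes tested in both lines.

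Irf1, an activator induced by IFNγ, rose 17.7-fold in Q7 and 12.2-fold in Q111 cells and was 2.28-fold higher in Q111-C than Q7-C. Irf8, which works with Irf1, rose 72.6-fold and 75-fold, from 0.114 and 0.116 TPM in the nontreated groups. Irf9, the DNA-binding subunit of the complex that type I interferon activates at ISRE sites, was 5.41-fold higher in Q111-C than Q7-C (adjusted p = 9.74e-07) and 3.37-fold higher in Q111-T than Q7-T. In nontreated cells 5 of the 10 genes were called higher in Q111, namely Ifngr2, Stat2, Stat3, Irf1 and Irf9, beside 7.62% of all genes tested. The other receptor gene on the list, Ifngr1, was lower in Q111-C and passed the adjusted p but not the fold threshold (0.710-fold, edgeR adjusted p = 0.0249). In treated cells 3 were called higher (Ifngr2, Irf2 and Irf9), beside 13.3% of all genes tested, and limma called 5. Jak1, Stat2 and Irf1 were higher there too but passed only the adjusted p (1.80-fold, 1.63-fold and 1.57-fold, edgeR adjusted p = 0.0432, 0.0411 and 0.0158). Ifngr1 was at 0.772-fold in treated cells (adjusted p = 0.0550). Irf2, a relative of Irf1 that can repress the same sites, had an interaction of 1.47 ± 0.33 (adjusted p = 0.0238), which did not pass in 9 of 23 other fits.

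In the type I interferon axis Irf7 was called higher in Q111 cells before treatment, and Irf7 and Ifnb1 after it. The receptor gene Ifnar1 passed the adjusted p but not the fold threshold in both conditions (1.60-fold, adjusted p = 0.00195, and 1.54-fold, adjusted p = 0.00251), as did Ifnar2 in treated cells (1.62-fold, adjusted p = 0.00530). Between the treated lines edgeR called 2 of the 5 genes listed higher in Q111, beside 13.3% of all genes tested, where DESeq2 called 1 and limma 4. Ifnb1, which encodes interferon β, was at 0 in every nontreated library, at 0 to 0.461 TPM in Q7-T and at 2.65 to 3.8 TPM in Q111-T, where it reached at most 103 estimated counts. Against a detection floor of 12 estimated counts per library, taken as 3 read pairs, it was at least 7.66-fold higher in Q111-T than in Q111-C (edgeR adjusted p = 0.0141) and at least 5.92-fold higher than in Q7-T (adjusted p = 0.0410), and the latter call was lost in 8 of 24 other fits, DESeq2 among them. Irf7, which amplifies interferon transcription, was 15.5-fold higher in Q111-C than Q7-C (0.804 ± 0.126 against 15.8 ± 5.08 TPM, adjusted p = 3.62e-06) and 9.57-fold higher in Q111-T than Q7-T. Of the 5 genes on this list, 2 were called higher on treatment in Q7 cells and 3 in Q111 cells, beside 2.93% and 8.28% of all genes tested, and the Ifnar2 call in Q7 cells was lost in 9 of 24 other fits. Nontreated Q111 cells thus had a higher level of Cxcl10, Irf7 and Irf9 than nontreated Q7 cells, with Ifnb1 at 0 in both.

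Of 20 tested genes on the LPS receptor and NF-κB list, 4 were called higher on treatment in Q7 cells (Cd14, Lbp, Myd88 and Nfkb1) and 3 in Q111 cells (Cd14, Lbp and Myd88), beside 2.93% and 8.28% of all genes tested, with a median log2 fold change of 0.10 and 0.62. In Q7 cells the Nfkb1 call was lost in 8 of 24 other fits and the Myd88 call in 7. Tlr4, the LPS receptor, was 2.82-fold higher in Q111-C than Q7-C (1.73 ± 0.851 TPM against 5.81 ± 1.16 TPM, edgeR adjusted p = 0.00454) and 3.6-fold higher in Q111-T than Q7-T. Its co-receptor Cd14 was 4.13-fold and 4.51-fold higher. Rel, an NF-κB subunit, was 3.78-fold higher in Q111-T than Q7-T (adjusted p = 0.00267). Between the treated lines 5 of the 20 were called higher by edgeR, and 0 were called lower by edgeR, DESeq2 or limma. The edgeR shares of all genes tested were 13.3% higher and 11.2% lower. Ticam1 was lower in Q111-T and passed the adjusted p but not the fold threshold (0.553-fold, edgeR adjusted p = 0.00781). Ly96, Myd88, Traf6 and Map3k7 were higher and likewise missed only the fold threshold (1.83-fold, 1.94-fold, 1.85-fold and 1.99-fold). In the interaction 0 of the 20 were called by edgeR, beside 3.52% and 1.2% of all genes, while DESeq2 called 1. At an unadjusted p under 0.05 the edgeR count was 5 of the 20, and the share of all genes at that threshold was not computed.

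Most genes listed as restraining these pathways rose on treatment. Of 9 listed, 6 were called higher on treatment in Q7 cells and 7 in Q111 cells, beside 2.93% and 8.28% of all genes tested, although the Tnfaip3 call in Q7 cells was lost in 16 of 24 other fits. Among the called genes were Socs1, an inhibitor of JAK kinases (14.2-fold and 10.5-fold), and Nfkbia, the inhibitor that holds NF-κB in the cytoplasm (2.86-fold and 5.39-fold). Usp18, which limits signalling by the type I interferon receptor, showed the largest line difference on this list. It measured 0.317 ± 0.328 TPM in Q7-C against 9.11 ± 3.11 TPM in Q111-C before treatment, 2.67 ± 0.732 TPM in Q7-T and 184 ± 16.8 TPM in Q111-T after it, and was 52.8-fold higher in Q111-T than Q7-T (edgeR adjusted p = 9.00e-05). Zfp36, a protein that destabilizes cytokine mRNAs, had an interaction of 1.56 ± 0.24 (adjusted p = 0.00327) and was called on treatment in Q111 cells (5.21-fold, adjusted p = 2.95e-06) but not in Q7 cells (1.76-fold, adjusted p = 0.0136).

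**Figure D4:**
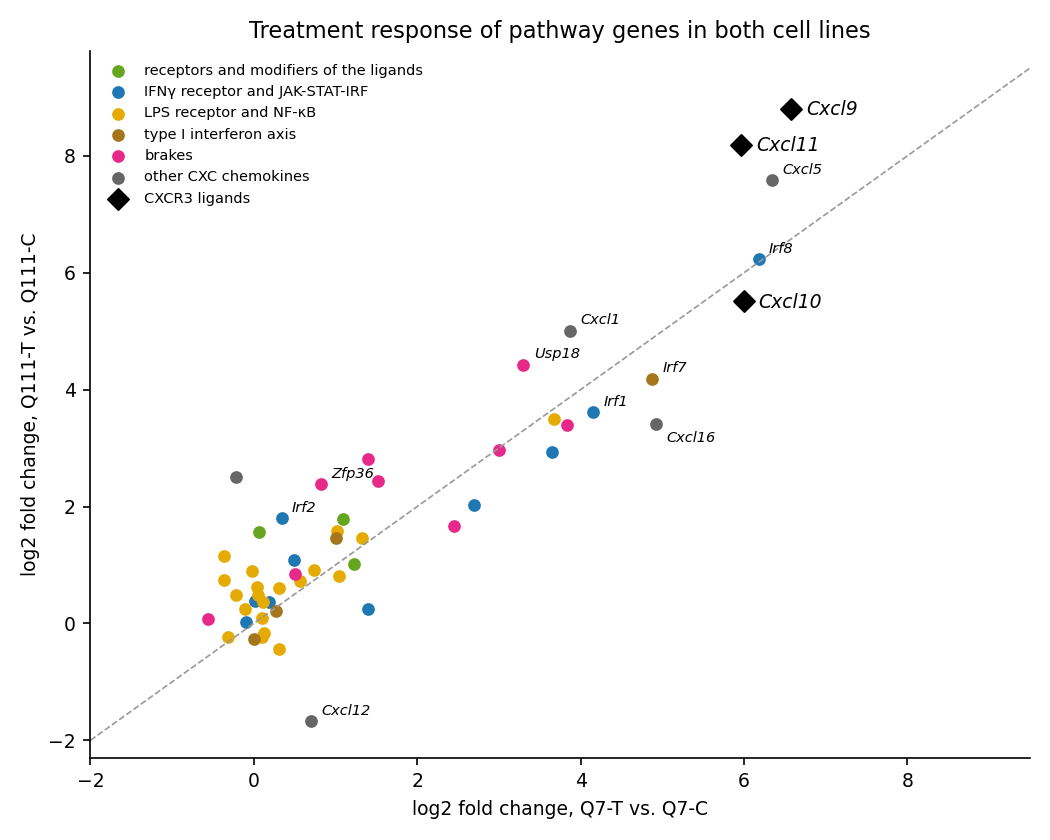
Log2 fold change on treatment in Q7 cells (horizontal axis) and in Q111 cells (vertical axis) of the 3 ligands (black diamonds) and of 51 tested genes of the 6 lists, with 4 genes at the detection floor left out and a dashed line of equal response. Cxcl9 (6.58 and 8.80) and Cxcl11 (5.97 and 8.19) lie above the line and Cxcl10 (6.0 and 5.51) slightly below it.

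The CXCR3 ligands were set beside the other CXC chemokines of these cells, of which 8 of 12 were tested. On treatment 3 of the 8 were called higher in Q7 cells and 6 in Q111 cells, beside 2.93% and 8.28% of all genes tested. Called lower were 0 in Q7 cells and 1 in Q111 cells (Cxcl12), beside 1.11% and 2.96%. The 6 called higher include Cxcl14, which had at most 12 estimated counts in Q111 cells and lost its call in 14 of 24 other fits. Cxcl1 and Ppbp, which act on neutrophils, were called higher in Q111 cells with and without treatment, beside 13.3% and 7.62% of all genes tested. Called lower were Cxcl12 and Cxcl14 without treatment, and Cxcl12, Cxcl14 and Cxcl16 with it, beside 7.61% and 11.2%. Against the floor, Cxcl14 was at least 7.68-fold lower in Q111-C than in Q7-C (edgeR adjusted p = 0.00179). The calls of Cxcl14 and Cxcl16 between the treated lines were each lost in 15 of 24 other fits. Cxcl1 reached 2383 ± 179 TPM in Q111-T, and its interaction did not pass (1.14 ± 0.50, edgeR adjusted p = 0.231). Cxcl12 and Cxcl16 had interactions of the opposite sign to Cxcl9 and Cxcl11. Cxcl12, a constitutive chemokine bound by CXCR4 and Ackr3, measured 15.7 ± 4.06 TPM in Q7-C against 4.65 ± 0.309 TPM in Q111-C, and 23.7 ± 12.4 TPM in Q7-T against 1.36 ± 0.249 TPM in Q111-T, with an interaction of -2.37 ± 0.34 (adjusted p = 0.00218) that did not pass with limma. Cxcl16, the ligand of CXCR6, rose in both lines but less in Q111 cells (30.2-fold and 10.7-fold, interaction -1.5 ± 0.30, adjusted p = 0.0130).

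Of 17 genes within 200 kb of the ligands, 12 were tested, and 9 of these were not ligands. In each line 1 of the 9 was called higher on treatment, beside 2.93% and 8.28% of all genes tested. These were U90926 in Q111 cells and Art3 in Q7 cells, where Art3 measured 1.11, 3.76 and 0.271 TPM in Q7-T (edgeR adjusted p = 0.0431). The Art3 call was lost in 14 of 23 other fits, the fit without Q7-T replicate 2 among them. U90926, a long noncoding RNA gene at -133.47 kb from the start of Cxcl10 (chr5:92209893-92215408), was detected mainly in treated Q111 cells. It measured 29.9, 42.9 and 41.7 TPM in Q111-T, with 0, 0 and 0.284 TPM in Q7-T, 0, 0 and 0.372 TPM in Q111-C and 0 in all Q7-C libraries. Against the floor it was at least 95.2-fold higher in Q111-T than in Q111-C (edgeR adjusted p = 0.00188) and at least 73.6-fold higher than in Q7-T (adjusted p = 0.00115).

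Sdad1, the gene next to Cxcl9, changed by 0.64 ± 0.29 and 0.23 ± 0.29 on treatment in Q7 and Q111 cells (log2, adjusted p = 0.315 and 0.679), and Nup54, beyond Art3, by 0.02 ± 0.20 and 0.20 ± 0.20 (adjusted p = 0.975 and 0.591). Between the treated lines 3 of the 9 were higher in Q111, namely U90926, Naaa and the processed pseudogene Gm15710, beside 13.3% of all genes tested. Art3, which encodes an ADP-ribosyltransferase family protein, lies on the opposite strand across Cxcl10 and Cxcl11, and 133 bases of its annotated exons fall inside exons of Cxcl10. It did not exceed 3.76 TPM in any library, and its highest value, in Q7-T replicate 2, came from the treated Q7 library with the lowest Cxcl10 (238 TPM). The libraries were stranded, and whether the counting used the strand is not given in the sources used here.

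**Figure D5:**
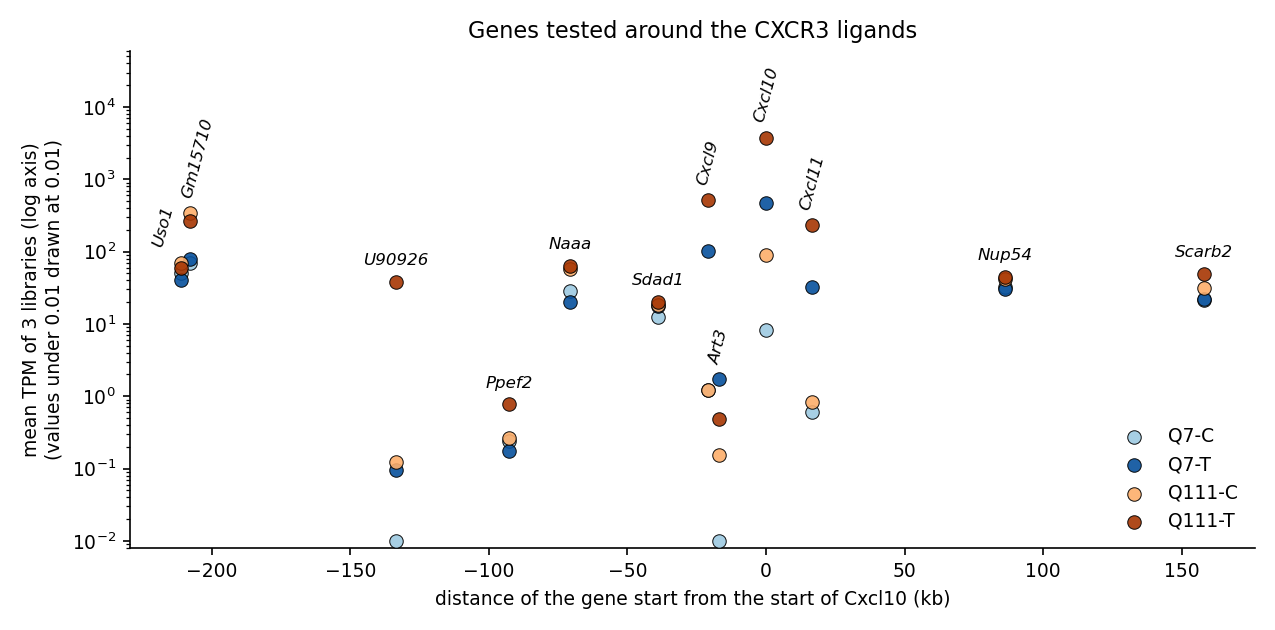
Mean TPM of 3 libraries per group (vertical log axis) of the 12 genes tested around the ligands against the distance of each gene start from the start of Cxcl10 in kb. Cxcl9, Cxcl10, Cxcl11, U90926 and Art3 (0.00875 TPM in Q7-C, drawn at 0.01, to 1.71 TPM in Q7-T) spread widely between groups, and Sdad1, Nup54 and Uso1 lie close together.

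The genes with the most similar profiles differed between the ligands. Over the 12 libraries the 5 genes with the highest Pearson correlation to Cxcl9 (log2(TPM + 0.5)) were the complement protease gene C1s1 (r = 0.998), the death receptor gene Fas (0.998), the inducible nitric oxide synthase gene Nos2 (0.997), Ms4a4d (0.996) and the interferon-inducible Ifi202b (0.996). Their mean levels were close in the nontreated lines, for example 3.94 and 3.79 TPM for C1s1, and apart in the treated lines, with 160 TPM in Q7-T and 618 TPM in Q111-T. Cxcl11 shared Ifi202b, Fas and Nos2 with this list, and its others were Cxcl9 itself (0.996) and Ccl2 (0.995), a monocyte attractant.

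Cxcl10 shared no gene with either list. Its nearest were the interferon-response genes Oasl2 (0.996), Parp9 (0.995) and Trim21 (0.993) together with Glrx (0.996) and Casp12 (0.992). All 5 had higher means in Q111-C than in Q7-C, as for Oasl2 with 0.570 against 7.84 TPM, and its treated means were 26.9 TPM in Q7-T and 248 TPM in Q111-T. Cxcl9 and Cxcl11 correlated at r = 0.996, Cxcl9 and Cxcl10 at 0.917 and Cxcl10 and Cxcl11 at 0.931, and Cxcl10 came in place 193 among the genes nearest to Cxcl9. With the group means removed, the correlation with Cxcl9 was 0.63 to 0.96 for its 5 genes and that with Cxcl10 was 0.70 to 0.93 for its own. These deviations are by TPM, where the median gene moved with the ligands in Q7-C replicate 1 (-0.23) and Q7-T replicate 2 (-0.37). The part of the library in these correlations was not tested. By rank correlation, 1 of the 5 genes remained for Cxcl10 and 2 for each of Cxcl9 and Cxcl11.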

How the data were processed

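Poly(A) RNA of 12 libraries in 4 groups of 3 was sequenced from both ends. Per the labels and the methods of the study, the authors trimmed reads with Cutadapt, mapped them with HISAT2 to GRCm38, assembled transcripts with StringTie, and used DESeq2 and edgeR. Tool versions are not given in the sources used here. The authors deposited 1 table with TPM values per gene and estimated counts as whole numbers, and its TPM sum to 688352 to 719623 per library. No per-sample column was left without a sample (0 columns).

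A gene was tested if 3 or more libraries reached 0.5 TPM. The estimated counts were rounded, scaled by TMM and fitted with edgeR 4.0.16 (quasi-likelihood, R 4.3.3), all 12 libraries in 1 fit with a mean per group. A gene was called at a Benjamini-Hochberg adjusted p under 0.05 over all genes tested with a log2 fold change of 1 or more in size. Standard errors were derived from the F statistic, and intervals are 95%. TPM and ratios were compared by two-sided exact permutation tests, and other alternatives used DESeq2 1.42.0 and limma 3.58.1. The procedure was tested on simulated data. The 3 libraries per group are called biological replicates, but whether they came from separate cultures is not stated, so p-values measure the spread between these samples, which may be technical.

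Low counts fell on multiples of 4 more often than on the even numbers beside them, by 1.30 to 1.76 times per library, so 1 read pair was taken as about 4 estimated counts and the floor of detection as 3 read pairs (12 estimated counts) per library. The floor covers counting error only. No replicates were alike within sampling noise (smallest chi-square per degree of freedom 19.6).

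The members and lists were chosen with earlier results of these data known. Named are the members, the genes of the lists, the 5 genes nearest in profile to each member, genes within 200 kb and the cell type markers. Protein sequences were not used here, and a withheld item is not reported here.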

Additional observations from a re-analysis of the deposited data

Results flagged for a closer look

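The change on treatment differed between the cell lines, by the edgeR test of the interaction, for 2 of the 3 ligands and for 4 of 55 tested genes of the lists, beside 3.52% of all genes with a larger and 1.2% with a smaller change in Q111 cells. The interaction (Q111 minus Q7 log2 fold change) was 2.22 for Cxcl9 (8.80 against 6.58) and 2.22 for Cxcl11 (8.19 against 5.97), and these calls were lost in 3 and 14 of 23 other fits. For Irf2 it was 1.47, with a change of 1.80 in Q111 cells and the call lost in 9 of 23 other fits, and for Zfp36 it was 1.56, with a change of 2.38 in Q111 cells. It was negative for Cxcl16 at -1.5 (3.42 against 4.92) and for Cxcl12 at -2.37 (-1.67 against 0.70), the only 1 of the 6 whose fitted change had opposite signs in the lines. The Cxcl12 call was lost in 3 of 23 other fits. Cxcl12 and Cxcl16 were also called lower in Q111-T vs. Q7-T, a call that Cxcl16 lost in 15 of 24 other fits. Dixon's test for an outlying sample within a group was not run, since it was not applied to groups of 3 libraries.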

How the results depend on the processing

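The calls of the 3 ligands on treatment in both lines, those of all 3 between the treated lines, and that of Cxcl10 between the nontreated lines kept their direction and their side of the thresholds under DESeq2, other scaling factors, other filters, counts divided by 4, limma, fits of only the groups compared, the replicate block and every fit without 1 library. The interaction of Cxcl9 (2.22) did not pass with limma on log2(TPM + 0.1) (2.22, adjusted p = 0.0707) and ranged from 1.74 to 2.54 without 1 library. That of Cxcl11 (2.22, adjusted p = 0.0497) did not pass with RLE factors (2.20, adjusted p = 0.0516), upper-quartile factors (2.16, 0.0537), no filter (2.23, 0.0630), limma on log2(TPM + 0.1) (2.30, 0.0794) or the replicate block (2.12, 0.0635), and ranged from 1.67 to 2.63 without 1 library. In Q111-C vs. Q7-C the sign turned for Cxcl9 with limma at each pseudocount (0.10, 0.19 and 0.06) and ranged from -0.54 to 0.27 without 1 library, and for Cxcl11 it ranged from -0.17 to 0.80, and was -0.13 without both Q7-C replicate 1 and Q7-T replicate 2 (a setting chosen after seeing the data, under which the interaction was 2.68 for Cxcl11). The causes were not tested.

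Of the list genes, 20 were called higher in Q7-T vs. Q7-C and 13 in the fit of only the groups compared, and 15 to 21 without 1 library. In Q111-T vs. Q7-T 19 were called higher, and 30 with limma on log2(TPM + 0.5) or log2(TPM + 0.1). Called lower there were 3, against 1 with no filter, with limma at pseudocounts 0.5 and 1, in the fit of only the groups compared, under the replicate block and without both libraries, and 1 to 4 without 1 library. In the interaction 2 were higher, against 6 with DESeq2, 5 with limma at pseudocounts 0.5 and 1, 1 under the replicate block, 9 without both libraries and 1 to 5 without 1 library. Lower there were 2, against 1 with limma at each pseudocount, 4 without both libraries and 2 to 3 without 1 library. Of 89 called results of single list genes, 68 were never lost and 0 reversed.

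The replicate numbers did not pair the samples. The correlations of deviations between same-numbered libraries of different groups ran from -0.416 to 0.303. The replicate block changed the Cxcl11 interaction call and no other call of a ligand. As sign flips of same-numbered pairs, the ratio Cxcl9/Cxcl10 gave -0.72 with p = 0.25, the smallest such an exact test can give. Depth limits Cxcl9 and Cxcl11 in nontreated cells, where they rest on 26 to 218 estimated counts.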
